A study of Mus musculus with 8 samples.

Results

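Granzymes and the other genes of cytotoxic granules are the subject here. The 9 genes are Gzma, Gzmb, Gzmc and Gzmk (granzymes), Prf1 (perforin), Nkg7, Srgn (serglycin), Ctsw (cathepsin W) and Fasl (Fas ligand). They were chosen by name, with earlier results of these data known, and each is represented by the probe set annotated to that gene alone. All 9 had such a probe set, and each had only 1, among 30560 named genes on the array.

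Colon RNA came from 8 mice, all of strain C57BL/6 and genotype Rag1-/-, so every mouse lacked mature T and B cells of its own. The control group was 5 mice injected with regulatory T cells (Tregs), whose colons were not inflamed. The inflamed group was 3 mice injected with naïve T cells, whose colons were severely inflamed. Injection was at 10 weeks of age, death came 2 to 4 months later, and the labelled age is 4 to 5 months. A T cell in these colons therefore derives from the graft, whereas NK and other innate lymphoid cells are the host's, and both groups had received T cells. There was no uninjected group. The labels describe the sampled tissue both as distal colon and as a strip of the whole length.

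Cytotoxic lymphocytes store perforin and granzymes in secretory granules on a serglycin matrix and release them onto a target cell. Perforin opens the target's membrane, the granzymes enter and cleave proteins inside it, and Fas ligand can kill the same cell through its receptor Fas without granules. Granzymes are also made by NK cells, some innate lymphoid cells and activated regulatory T cells, and serglycin is made by most blood-derived cells, mast cells, macrophages and neutrophils among them.

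The granzyme genes looked up here, which leave out Gzmm, lie in 2 groups on the mouse genome. In RefSeq's table for GRCm38.p6, 7 granzyme genes follow one another on chromosome 14 (Gzme, Gzmd, Gzmg, Gzmn, Gzmf, Gzmc and Gzmb) with no other protein-coding gene between them, and Gzma and Gzmk are neighbours on chromosome 13. The sequences just before the transcription start are shown for Gzmc, Gzmf, Gzmg, Gzmb, Gzma and Nkg7. Within the chromosome 14 cluster, Gzmb was higher in inflamed colon. The signals of Gzmc, Gzmf and Gzmg stood out on 1 inflamed array only and did not pass the test. Any link between sequence and RNA was not tested. Sequences are from RefSeq (GRCm38.p6), are read 5′ to 3′ on the gene's strand and end at the last base before the start. Capitals mark a match, on either strand, to 1 of 4 motifs.

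Gzmc, chr14:56234658-56234817, minus strand: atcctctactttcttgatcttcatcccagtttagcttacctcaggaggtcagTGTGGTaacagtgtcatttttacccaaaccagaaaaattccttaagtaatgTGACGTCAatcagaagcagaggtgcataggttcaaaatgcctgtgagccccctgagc
Gzmf, chr14:56211408-56211567, minus strand: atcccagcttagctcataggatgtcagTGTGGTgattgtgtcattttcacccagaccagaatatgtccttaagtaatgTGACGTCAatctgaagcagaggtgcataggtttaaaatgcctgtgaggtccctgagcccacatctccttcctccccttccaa
Gzmg, chr14:56159580-56159739, minus strand: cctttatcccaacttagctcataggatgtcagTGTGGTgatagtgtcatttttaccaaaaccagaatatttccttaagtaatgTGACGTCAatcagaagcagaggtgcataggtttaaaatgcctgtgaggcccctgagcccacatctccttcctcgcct
Gzmb, chr14:56262335-56262584, minus strand: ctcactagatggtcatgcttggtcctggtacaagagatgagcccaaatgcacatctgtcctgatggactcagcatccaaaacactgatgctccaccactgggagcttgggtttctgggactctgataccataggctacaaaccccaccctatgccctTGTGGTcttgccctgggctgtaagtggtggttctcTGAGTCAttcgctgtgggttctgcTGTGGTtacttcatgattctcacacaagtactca
Gzma, chr13:113100982-113101231, minus strand: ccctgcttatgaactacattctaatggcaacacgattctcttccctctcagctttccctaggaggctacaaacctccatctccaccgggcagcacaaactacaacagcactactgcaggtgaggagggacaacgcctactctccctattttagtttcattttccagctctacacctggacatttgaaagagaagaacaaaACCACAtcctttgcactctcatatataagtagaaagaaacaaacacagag
Nkg7, chr7:43436888-43437137, plus strand: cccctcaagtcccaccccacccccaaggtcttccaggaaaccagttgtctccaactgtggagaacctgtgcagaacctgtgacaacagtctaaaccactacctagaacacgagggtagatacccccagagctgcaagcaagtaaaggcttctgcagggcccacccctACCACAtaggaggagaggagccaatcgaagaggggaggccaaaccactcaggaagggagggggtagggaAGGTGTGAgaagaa

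Over the 250 bases before the start, the Gzmc window aligned to those of Gzme and Gzmd with 80.9% and 80.5% identical positions, to those of Gzmg and Gzmf with 73.7% and 70.2%, and to that of Gzmb with 47.5%, close to the 44.6% with Gzma on another chromosome. The CREB/ATF motif TGACGTCA was found in Gzmc, Gzmf and Gzmg, not in the windows of Gzmd and Gzme, and in 1.55% of all 32851 promoter windows of that length. The RUNX motif TGTGGT was found in 6 of the 8 granule genes with a window (Gzma, Gzmb, Gzmc, Nkg7, Prf1 and Srgn) and in 14.0% of all windows. The AP-1 motif TGANTCA was found in Gzmb alone of the 8 and in 6.75% of all windows, and the T-box motif AGGTGTGA in Nkg7 alone and in 1.12%. No motif overlapped another in the windows shown. These are matches of letters, and no binding was measured.

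The arrays were alike in their medians (4.81 to 4.91 on the log2 scale) and in the signal of the 5222 negative-control probe sets, whose array medians were 4.92 to 5.11 and which serve here as the level of background. Inflamed replicate 2 stood apart, with a Pearson's r of 0.987 and 0.986 with the other inflamed arrays, against 0.995 between those and 0.994 to 0.997 among controls. Xist, a mark of female cells, was high on 3 of the 5 controls and on inflamed replicate 3 only. All 9 measured markers of colon epithelium were above the negative-control median on every array, with list means of 11.6 to 11.7 in controls and 11.4 to 11.6 in inflamed colon. Of these 9, 1 rose and 3 fell: Krt20, a keratin of surface cells, rose by 0.58 ± 0.12 (adjusted p = 0.02), and Slc26a3, an anion exchanger of colonocytes, and Cdx1, an intestinal transcription factor, were among those that fell (by 1.30 ± 0.32, adjusted p = 0.0389, and 0.51 ± 0.10, adjusted p = 0.0164). With single arrays left out 0 or 1 rose and 1 to 3 fell. The Slc26a3 call ended when any array but control 1 or inflamed replicate 2 was left out.

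In severely inflamed colon 7 of the 9 granule genes were higher than in controls: Gzma, Gzmb, Gzmk, Nkg7, Srgn, Ctsw and Fasl. Among the 5 of them above the negative-control median on every array, the rises ran from 2.81-fold for Ctsw to 6.43-fold for Gzma. The 90th percentile of the negative-control probe sets was 7.21 to 7.38 over the arrays. Control values of these 5 genes lay below it, except Gzma on control 1, so the 5 were not fully clear of background. Gzmk and Fasl rose from signals below the negative-control median, none of the 9 fell, and Prf1 and Gzmc did not pass the test. A gene is said to have risen or fallen where limma's adjusted p over all genes was under 0.05. Across all genes 13.1% were called in either direction and 8.04% rose. In the same 7 genes every inflamed value lay above every control value, which held for 12.0% of all genes. Because the 9 were chosen with earlier results known, these shares are a background and not a test. The median difference was 1.49 on the log2 scale for the 9 genes and -0.01 for all genes. In whole tissue, more cells of a type and more RNA per cell cannot be told apart.

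**Figure D1:**
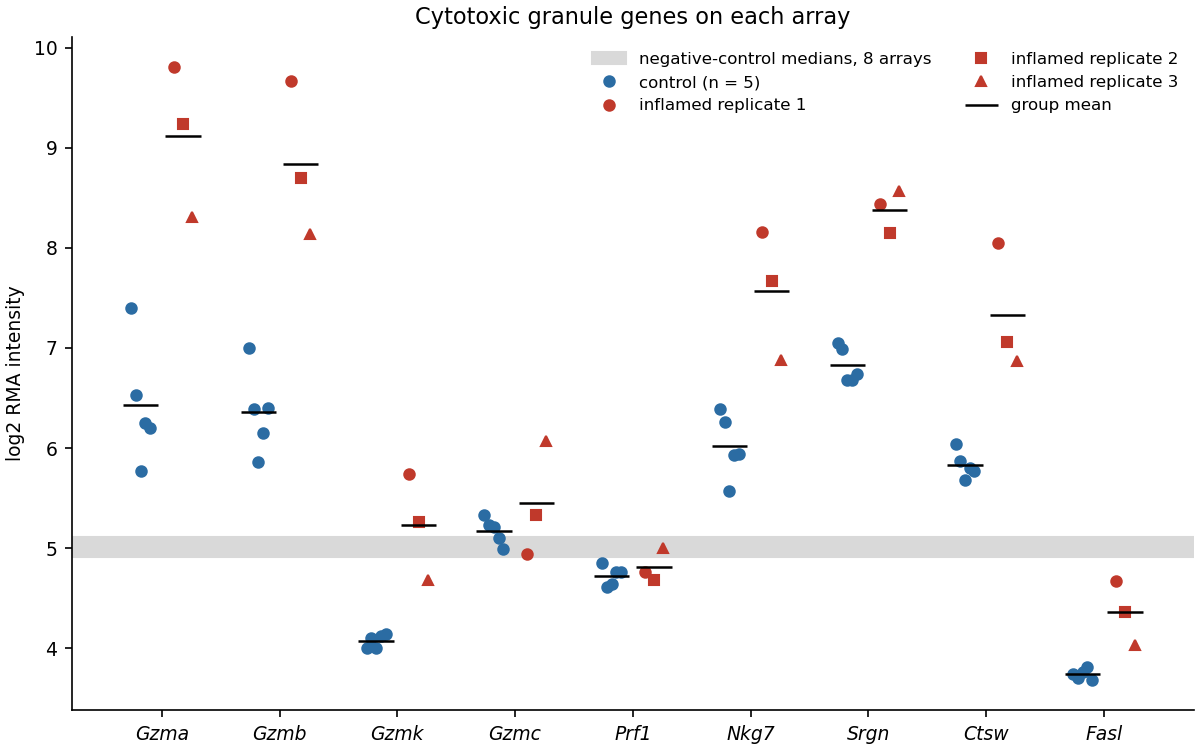
Log2 RMA intensity (y axis) of the 9 granule genes on each array: 5 controls (blue), 3 inflamed arrays (red, a symbol for each replicate), group means (black lines) and the range of the negative-control medians (grey band, 4.92 to 5.11). The inflamed values of 7 genes lay above all their control values, and those of Prf1 and Gzmc did not; Fasl and all control values of Gzmk were below the band.

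Gzma encodes granzyme A, a tryptase-like protease. Its log2 values were 7.40, 6.53, 5.78, 6.25 and 6.20 on controls 1 to 5 and 9.80, 9.24 and 8.31 on inflamed replicates 1 to 3. Control 1 was the highest control, and the lowest inflamed array was still 0.91 above it. Gzma rose by 2.68 ± 0.44 (log2 difference ± SE, n = 5 and 3, adjusted p = 0.00824), or 6.43-fold.

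Gzmb encodes granzyme B, which cuts after aspartate and activates caspases. On the log2 scale it measured 7.00, 6.39, 5.86, 6.15 and 6.40 on the controls and 9.67, 8.70 and 8.14 on the inflamed arrays. The groups were 1.14 apart at their closest, and control 1 and inflamed replicate 1 were again the highest of their groups. Gzmb rose by 2.48 ± 0.37 (adjusted p = 0.00606), or 5.56-fold.

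Gzmk encodes granzyme K, a second tryptase-like granzyme and the chromosomal neighbour of Gzma. Log2 values of Gzmk were 4.00, 4.11, 4.01, 4.12 and 4.14 on the controls and 5.74, 5.27 and 4.68 on the inflamed arrays. All controls lay below the negative-control medians, and only inflamed replicates 1 and 2 lay above them. Gzmk rose by 1.15 ± 0.21 (adjusted p = 0.0119), and since the control level is at background the difference may understate the change. With values below the dim limit of 4.89 set to that limit, the difference was 0.41 (adjusted p = 0.227).

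Gzmc encodes granzyme C, next to Gzmb in the chromosome 14 cluster. Gzmc measured 5.33, 5.24, 5.22, 5.10 and 4.99 on the controls and 4.94, 5.33 and 6.08 on the inflamed arrays. Only inflamed replicate 3 lay clearly above the control range, and replicate 1 was the lowest of all 8. The difference was 0.27 ± 0.23 (adjusted p = 0.467, 95% confidence interval -0.27 to 0.82), and -0.04 without inflamed replicate 3.

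The same array was the only one to stand out for Gzmf and Gzmg, which lie in the same cluster and were listed with the granzymes outside the 9 genes. Gzmf was at 4.10 to 4.19 on controls and at 4.02, 4.14 and 6.34 on inflamed replicates 1 to 3. Gzmg was at 4.90 to 5.15 on controls and at 4.86, 5.13 and 7.54 on the inflamed arrays. Neither passed the test (differences of 0.67 ± 0.50, adjusted p = 0.412, and 0.76 ± 0.57, adjusted p = 0.408), and both differences were -0.09 without inflamed replicate 3. The other measured granzymes, Gzmm and Gzmn, did not pass either, so limma called 0 of 4 in this list, and 0 had an unadjusted p under 0.05. Granzymes of this cluster are related in sequence, and Gzmd and Gzme had no probe set of their own. Whether probes of 1 gene picked up RNA of another was not tested, so which of these genes was high on that array is uncertain.

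Prf1 encodes perforin, the pore-forming protein that lets granzymes into the target cell. Log2 values of Prf1 were 4.85, 4.61, 4.64, 4.76 and 4.76 on the controls and 4.76, 4.68 and 5.01 on the inflamed arrays. It exceeded the negative-control median on 1 of 8 arrays (inflamed replicate 3), and the groups overlapped. The difference was 0.09 ± 0.09 (adjusted p = 0.522), with a 95% confidence interval of -0.11 to 0.29. At a signal this close to background a change of perforin RNA was not detectable with this probe set.

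Nkg7 encodes a membrane protein of cytotoxic granules that takes part in their release. Nkg7 measured 6.39, 6.26, 5.57, 5.93 and 5.95 on the controls and 8.16, 7.67 and 6.88 on the inflamed arrays. All inflamed arrays were above all controls, replicate 3 by the least. Nkg7 rose by 1.55 ± 0.30 (adjusted p = 0.0164), or 2.93-fold, and its adjusted p reached 0.0492 when single arrays were left out.

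Srgn encodes serglycin, the proteoglycan that holds granzymes, and mast cell and neutrophil proteases, in granules. Log2 values of Srgn were 7.05, 6.99, 6.68, 6.68 and 6.74 on the controls and 8.43, 8.15 and 8.56 on the inflamed arrays. Unlike Gzma, Gzmb and Gzmk, it was highest on inflamed replicate 3, and its inflamed arrays spanned 0.41 where those of Gzma spanned 1.50. Srgn rose by 1.56 ± 0.13 (adjusted p = 0.00064), or 2.94-fold, the smallest p of the 9 genes.

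Ctsw encodes cathepsin W, a cysteine protease found mainly in cytotoxic T and NK cells. Ctsw measured 6.04, 5.87, 5.68, 5.80 and 5.77 on the controls and 8.05, 7.06 and 6.87 on the inflamed arrays. Replicate 1 stood above the other inflamed arrays, which were both above all controls. Ctsw rose by 1.49 ± 0.25 (adjusted p = 0.00997), or 2.81-fold.

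Fasl encodes Fas ligand, the death ligand that acts without perforin. Log2 values of Fasl were 3.74, 3.70, 3.76, 3.82 and 3.69 on the controls and 4.68, 4.37 and 4.04 on the inflamed arrays. The groups did not overlap, but all 8 values lay below the negative-control medians. Fasl rose by 0.62 ± 0.13 (adjusted p = 0.0199), but with values below the dim limit set to that limit its difference was 0 (adjusted p = 1). The call ended without control 2, control 5 or inflamed replicate 2 (adjusted p = 0.051, 0.0521 and 0.0507).

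The inflamed arrays did not carry the 7 risen genes in the same proportions. Gzma, Gzmb, Gzmk, Nkg7, Ctsw and Fasl were all highest on inflamed replicate 1 and lowest on replicate 3, an order that 16.1% of all 2458 risen genes had. Gzmb was 3.31, 2.34 and 1.78 above the control mean on replicates 1, 2 and 3, and Ctsw 2.22, 1.22 and 1.04. Over all 8 arrays, the deviations of these 6 genes from their group means correlated with a Pearson's r of 0.61 to 0.95 over their 15 combinations. Srgn had r of -0.28 to 0.32 with the same 6. The 6 were grouped by their shared order on the inflamed arrays. That by itself favours a high r among them and a lower r with Srgn. These values are descriptions over 8 arrays and carry no test. Replicate 3 was also the only inflamed array with high Xist, and among controls the arrays with low Xist, 1 and 2, were the highest for Gzma, Nkg7, Ctsw and Srgn, though not for Gzmb, Gzmk or Fasl. With Xist as a covariate the same 7 genes were called, Gzma with a difference of 2.42 (adjusted p = 0.00379); the part of Xist in the order of the arrays was not tested.

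Markers of cell types varied over the inflamed arrays too. Mean values of the T cell markers were 1.62, 1.08 and 0.88 above control on inflamed replicates 1, 2 and 3, so replicate 1 led as it did for Gzma, Gzmb and Gzmk. Neutrophil markers were 1.41, 1.67 and 2.95 above control, so replicate 3 led, as it did for Srgn, Gzmc, Gzmf and Gzmg. Replicate 3 also led for monocyte and macrophage markers (1.39, 1.56 and 1.66) and for mast cell markers (0.56, 0.26 and 0.64). Deviations of the 6 genes had r of 0.65 to 0.95 with those of Cd3e, a T cell receptor chain, of 0.71 to 0.95 with those of Ptprc, the CD45 gene of all leukocytes, and of -0.90 to -0.26 with those of S100a8, a calprotectin subunit of neutrophils. Cd3e and Ptprc have the same order on the inflamed arrays as the 6 genes, and S100a8 has the reverse. These r values therefore follow in part from how the 6 were grouped. The part of the cell types in the granule genes was not tested.

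**Figure D2:**
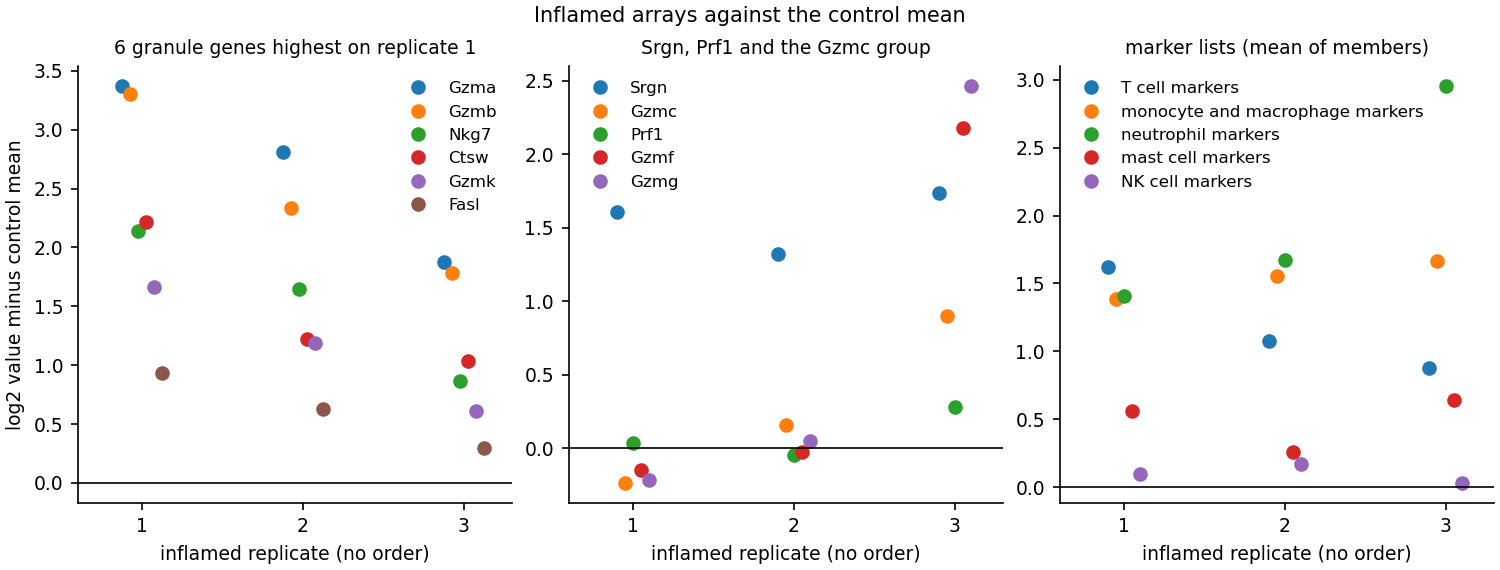
Log2 value minus the control mean (y axis) on each inflamed replicate (x axis; replicates have no order) for 6 granule genes (left), for Srgn, Prf1 and 3 granzymes of the chromosome 14 cluster (middle), and for the mean of 5 marker lists (right). The left-hand genes were highest on replicate 1, as were T cell markers (1.62), and Gzmc, Gzmf and Gzmg stood out on replicate 3 alone. Neutrophil markers (2.95), monocyte and macrophage markers (1.66) and mast cell markers (0.64) were also highest on replicate 3.

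Markers of the cells that could carry these transcripts were read on the same arrays. Of the T cell markers, 10 of 13 measured rose and 0 fell, with list means of 5.29 to 5.41 in controls and 6.23 to 6.97 in inflamed colon. Il7r, the interleukin-7 receptor that keeps resting T cells alive, rose by 2.54 ± 0.24 (adjusted p = 0.00112), Cd3e by 2.07 ± 0.18 (adjusted p = 0.000868) and Cd3g by 1.99 ± 0.27 (adjusted p = 0.00446). Cd8a, a marker of cytotoxic T cells that was picked out after its values were seen, was at 5.19 to 5.63 on controls and at 8.30, 6.22 and 6.11 on inflamed replicates 1 to 3. Its difference was 1.53 ± 0.48 (adjusted p = 0.0817), and without inflamed replicate 1 it was 0.82 (adjusted p = 0.0132). Cd8b1, the partner chain of Cd8a, differed by -0.03 (adjusted p = 0.609). It was at 5.18 to 5.34 on all 8 arrays, close to background, so a change of its RNA may have gone undetected. Cd4, the marker of helper T cells, rose by 1.56 ± 0.18 (adjusted p = 0.00226). Of the regulatory T cell markers 2 of 5 measured rose and 0 fell: Il2ra by 0.59 ± 0.08 (adjusted p = 0.00456) and Ctla4 by 0.56 ± 0.14 (adjusted p = 0.0397), and without any 1 of the 5 controls only Il2ra did. Both were near background: Ctla4 exceeded the negative-control median on 0 of 8 arrays and Il2ra on 1. Foxp3, the regulatory T cell transcription factor also on that list, was not measured.

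Of 8 measured NK cell markers, 0 passed limma's test in either direction (2 had an unadjusted p under 0.05, Ncr1, which was lower, and Klrd1), and 6 lay at or below the negative-control median on all 8 arrays, among them Ncr1, the receptor NKp46 of NK cells, at 4.40 to 4.69. List means were 4.50 to 4.64 in controls and 4.60 to 4.73 in inflamed colon. Klrd1, which encodes CD94 and is also found on activated CD8 T cells, had the largest difference of that list, 0.52 ± 0.21 (adjusted p = 0.149), and was at 5.38 on inflamed replicate 1 against 4.17 to 4.37 on controls. Without inflamed replicate 3 its difference was 0.75 (adjusted p = 0.0439). Of 5 measured innate lymphoid cell markers only Il22, an epithelial repair cytokine also made by T cells, rose, by 0.60 ± 0.07 (adjusted p = 0.00206).

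Among other cells that make serglycin, monocytes and macrophages had all their measured markers higher in inflamed colon, and neutrophils and mast cells only some. All 12 measured monocyte and macrophage markers rose, with list means of 6.45 to 6.65 in controls and 7.89 to 8.17 in inflamed colon, and Lyz2, the lysozyme of macrophages, rose by 2.76 ± 0.08 (adjusted p = 2.27e-05). The call of Mrc1, the mannose receptor of macrophages, ended with Xist as a covariate and when any array but inflamed replicate 3 was left out (adjusted p = 0.0508 to 0.13), leaving 11. Of 10 neutrophil markers 4 rose and 0 fell, with list means of 5.15 to 5.33 in controls and 6.61 to 8.16 in inflamed colon. Of 10 mast cell markers 4 rose and 1 fell. Mcpt1, a mast cell protease of mucosal surfaces, rose by 2.82 ± 0.39 (adjusted p = 0.00441), and 6 of the 10 lay at or below the negative-control median on every array. Kit, which is not particular to mast cells, fell by 1.39 ± 0.17 (adjusted p = 0.00272). Its control mean was 8.52, where that of Mcpt1 was 3.86, and which cells its fall reflects was not tested. Mast cell list means were 4.36 to 4.41 in controls and 4.65 to 5.03 in inflamed colon. What these cells contributed to the Srgn value was not tested.

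The rises were next set against that of Ptprc and that of Cd3e. Ptprc rose by 2.62 ± 0.14 on the log2 scale, from 5.78 to 6.06 on controls to 8.88, 8.37 and 8.31 on inflamed arrays. The log2 value of each granule gene minus that of the reference on the same array was compared between groups with an exact two-sided permutation test over 56 divisions of the arrays, whose smallest p is 0.0179. There were 18 such comparisons, and their p-values are unadjusted. Ratios within an array show unequal change and do not give a level per cell. Gzmk, Gzmc, Prf1 and Fasl were at or near background on some or all arrays. A ratio of these to a gene that rose would be low in any case, so it is not read here. Cd3e was at 5.03 to 5.18 on controls, near the negative-control medians, so its rise may be understated. Control values of Ptprc, Nkg7, Srgn and Ctsw lay below the negative-control 90th percentile (7.21 to 7.38 over the arrays). So did Nkg7 on inflamed replicate 3 (6.88) and Ctsw on inflamed replicates 2 and 3 (7.06 and 6.87). Their rises may be understated by unequal amounts, so a lower ratio need not mean a smaller rise.

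For Gzma and Gzmb no difference from the rise of Ptprc was detectable. Relative to Ptprc, Gzma differed by 0.06 (exact p = 0.875) and Gzmb by -0.15 (exact p = 0.607), and in both genes the inflamed values overlapped those of the controls. The control values of the Gzma ratio spanned -0.58 to 0.80 around their mean. With single arrays left out the difference ran from -0.10 to 0.36 for Gzma and from -0.39 to 0.10 for Gzmb, so its sign was not settled; the extremes came without inflamed replicate 1 and without inflamed replicate 3. Nkg7, Srgn and Ctsw were lower relative to Ptprc on every inflamed array (each exact p = 0.0179), Nkg7 and Srgn by 1.07 and Ctsw by 1.13 on the log2 scale. With control signals this close to background, a smaller rise of these genes is not settled by their ratios.

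Relative to Cd3e, Gzma was 0.61 higher (exact p = 0.179) and Gzmb 0.41 higher (exact p = 0.232), both with overlapping groups. Without control 1, the control with the highest granzyme values, these were 0.85 and 0.56, and the groups no longer overlapped. They were 0.44 and 0.27 without control 3 and 0.50 and 0.22 without inflamed replicate 1. Nkg7 was 0.52 lower and Srgn 0.51 lower (each exact p = 0.0893), with Srgn on inflamed replicate 3 at 0.15 above the control mean of the ratio. Without that array the Srgn difference was -0.85, and without control 3 that of Nkg7 was -0.64, both then with no overlap. Ctsw was 0.58 lower, with no overlap (exact p = 0.0179). The limit of signals near background holds for these ratios too.

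**Figure D3:**
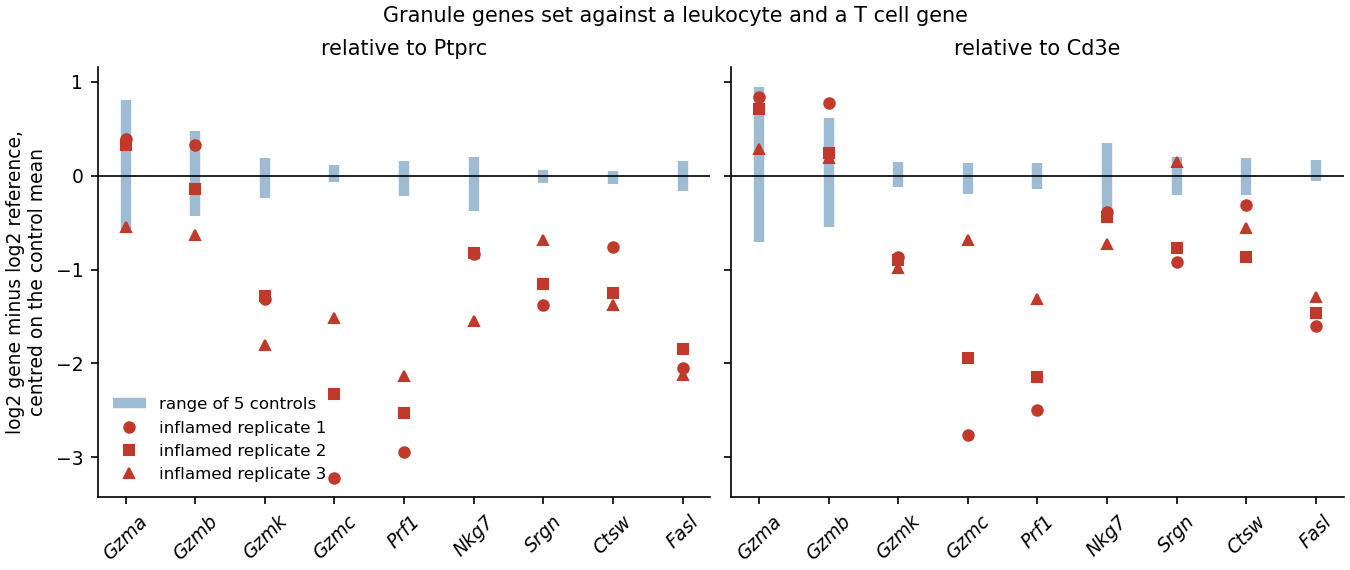
Log2 value of each granule gene minus that of Ptprc (left) or Cd3e (right) on the same array, centred on the control mean (y axis): the range of 5 controls (blue bars) and each inflamed replicate (red symbols). Gzma and Gzmb overlapped the controls in both panels, and Nkg7, Srgn and Ctsw lay below them on all inflamed arrays relative to Ptprc; Gzmk, Gzmc, Prf1 and Fasl are at or near background on some or all arrays and their ratios are not read.

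Genes that process or restrain granzymes were higher as well. Of 8 measured, 6 rose and 0 fell, with a median difference of 0.48. Serpina3n, a secreted serpin that inhibits granzyme B and is also an acute-phase gene, was at 6.01 to 6.60 on controls and at 8.49, 9.72 and 9.12 on inflamed arrays, and rose by 2.72 ± 0.27 (adjusted p = 0.00124). Ctsc, the cathepsin that removes the propeptide of granzymes and also activates neutrophil and mast cell proteases, rose by 1.21 ± 0.18 (adjusted p = 0.00547). Cst7, which encodes cystatin F, an inhibitor of cathepsin C, rose by 1.19 ± 0.23 (adjusted p = 0.0177), and was at 6.53 on inflamed replicate 1 against 5.60 and 5.52 on the others. Serpinb9, the cell's own inhibitor of granzyme B, was among the risen genes, with a difference of 0.47 ± 0.07. With single arrays left out, 4 or 5 of the 8 rose.

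Of 12 measured genes of granule formation and release, 4 rose and 1 fell, with a median difference of 0.16, where 8.04% of all genes rose. Stx11, a syntaxin of granule fusion, rose by 0.55 ± 0.14 (adjusted p = 0.0433), Lyst, which governs the size of lysosome-related granules, by 0.55 ± 0.06 (adjusted p = 0.00137) and Calr, an endoplasmic reticulum chaperone also found in granules, by 0.51 ± 0.08 (adjusted p = 0.00708). The gene that fell, Igf2r, encodes the mannose 6-phosphate receptor that sorts granzymes and many lysosomal enzymes. Leaving out any of controls 2 to 5, or inflamed replicate 1 or 3, ended the Stx11 call (adjusted p = 0.0824 to 0.135). The Igf2r call held only without inflamed replicate 2, and 2 to 4 of the 12 rose when single arrays were left out.

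Of 9 measured genes of death receptors and target cell death, 2 rose and 1 fell. Fas, the receptor of Fas ligand, was at 7.50 to 8.37 on controls and at 8.87, 9.03 and 8.89 on inflamed arrays, and rose by 0.88 ± 0.19 (adjusted p = 0.0244). Tnfrsf10b, the TRAIL receptor, rose by 0.37 ± 0.08 (adjusted p = 0.028), and Gsdme, a gasdermin that granzyme B and caspase 3 can cleave, fell by 0.53 ± 0.11 (adjusted p = 0.02). These calls were fragile: that of Fas ended without control 2 or 5 or any 1 inflamed array (adjusted p = 0.0536 to 0.0715), that of Tnfrsf10b without control 1, 4 or 5 or inflamed replicate 1 or 2, and that of Gsdme without control 4 or inflamed replicate 1. With Xist as a covariate the calls of Tnfrsf10b, Stx11, Igf2r, Ctla4 and Slc26a3 ended too. Without inflamed replicate 1 none of the 9 was called.

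Of 7 measured transcription factors of cytotoxic lymphocytes, 3 rose and 0 fell, and the same number rose whichever array was left out. Prdm1, which encodes Blimp-1, also of plasma cells and differentiated epithelium, rose by 1.73 ± 0.16 (adjusted p = 0.00111), Id2 by 0.98 ± 0.17 (adjusted p = 0.0104) and Runx3 by 0.36 ± 0.07 (adjusted p = 0.0155). Tbx21, which encodes T-bet, a regulator of granzyme and interferon-gamma genes, differed by 0.03 and did not pass.

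**Figure D4:**
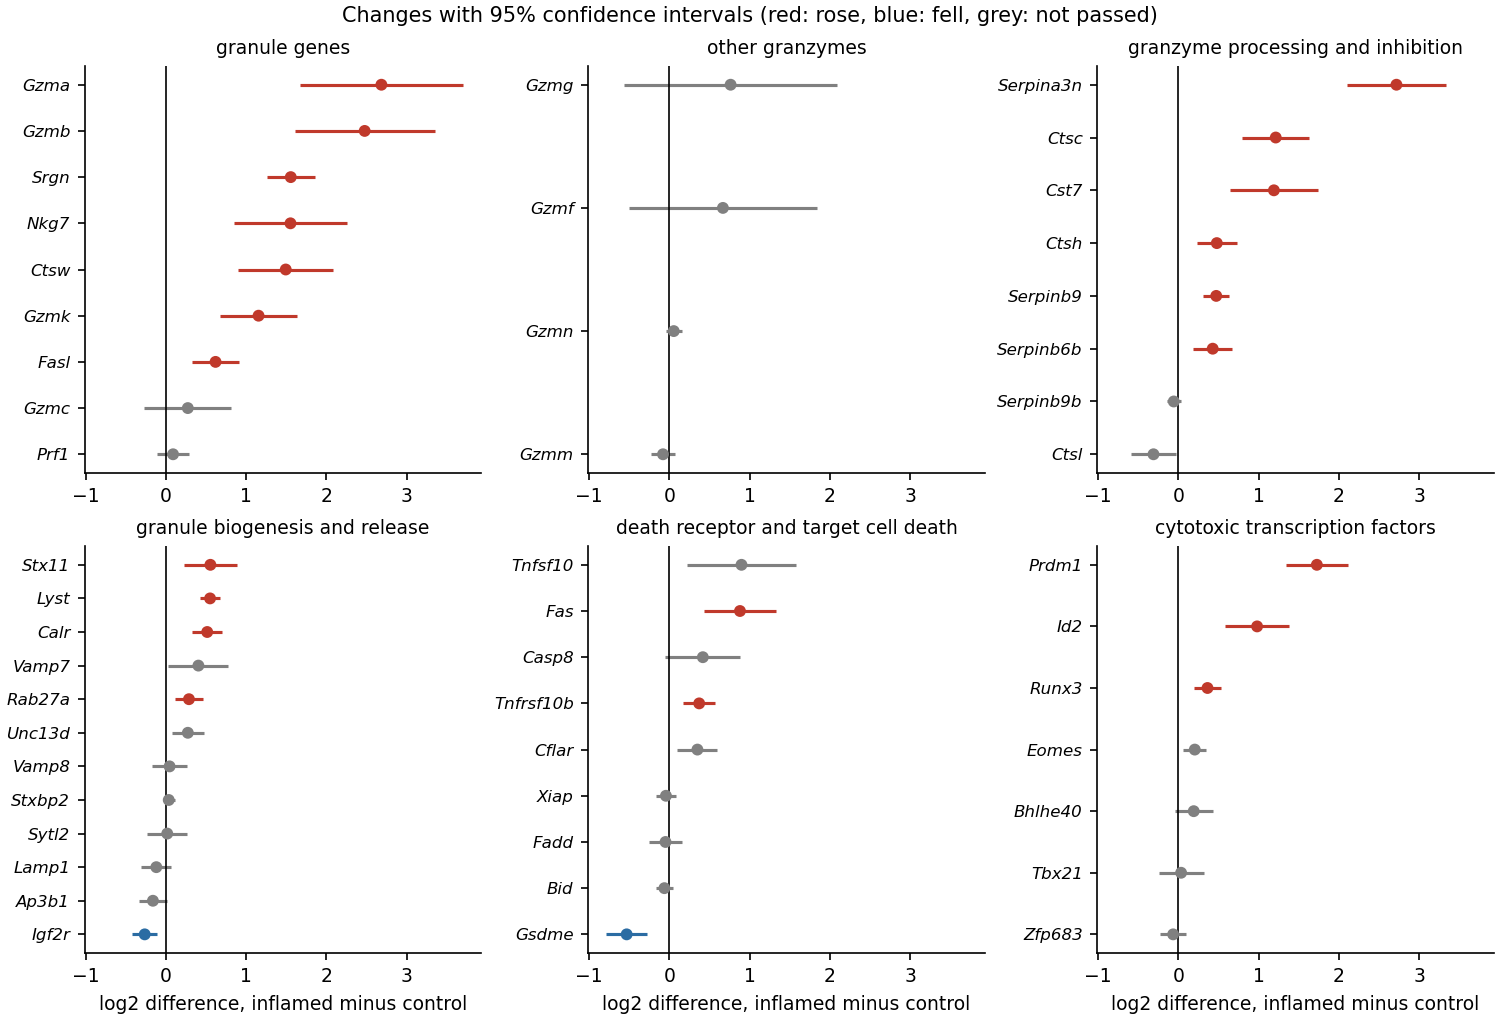
Log2 difference, inflamed minus control (x axis), with its 95% confidence interval for the 9 granule genes and for the measured genes of 5 related lists; red rose, blue fell and grey did not pass at an adjusted p of 0.05. The granule genes range from Gzma at 2.68 to Prf1 at 0.09, and outside them Serpina3n (2.72) and Prdm1 (1.73) were highest.

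The mean profile of the 9 genes over the arrays was most like that of Ccl5, a chemokine made by cytotoxic lymphocytes among other cells. Not all of the 9 share that profile: over the 8 arrays Gzmc and Prf1 had r of 0.18 and 0.29 with Gzma. Among 666 other genes with a difference of at least 1 on the log2 scale, Ccl5 had the highest Pearson's r with the mean of the 9 genes over 8 arrays (0.998), followed by Apol7b (0.993), Ubd (0.991), Apol7e (0.990), Ptpn22 (0.990), Ccl8 (0.988), Gimap4 (0.987) and Dock10 (0.987). For Gzma alone the order was Apol7b, Apol7e and Ccl5 (0.986, 0.983 and 0.981), and for Gzmb Apol7e, Apol7b and Ccl5 (0.997, 0.992 and 0.992). The groups' difference sets most of each r, so these values are a description.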

How the data were processed

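Per the labels' protocols, total RNA of colon was labelled with an Affymetrix whole-transcript kit and hybridised, 1 array per mouse. The authors deposited 1 log2 intensity per probe set and array; the submitters' processing notes name Expression Console and RMA. The values themselves show the log2 scale. Software versions, settings and the genome build were not stated in what was used here. RMA compresses low signals. There are no counts or detection calls, so the number of arrays limits precision.

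Of 65956 transcript clusters, 31089 were named through the platform annotation and RefSeq's GRCm38.p6 gene table (1661 with several genes were left unnamed), giving 30560 genes, the brightest probe set per gene. Inflamed minus control was tested with limma 3.58.1 (R 4.3.3; lmFit, eBayes, no covariate) and Benjamini-Hochberg adjustment over all genes, after tests on simulated data. Nothing says how replicates were housed, and p-values measure the spread between these mice. Named genes were the 9, and per list the 3 largest passing changes (the 2 largest of any if under 2 passed); Serpinb9, Igf2r, Tbx21, Ncr1, Cd8a, Cd8b1, Cd4, Mrc1, Gzmm and Gzmn were named after their values were seen. The 9 genes, lists and tests were chosen with earlier results of these data known. A planned limma fit on ratios to Ptprc and Cd3e is not used, because the shared reference gave all genes 1 standard error (99.8% and 99.5% of genes called); an exact permutation test, chosen after seeing the data, replaced it. Replicate numbers are shared by the groups but do not pair the mice: deviations of same-numbered arrays correlated at -0.29, -0.05 and 0.07. Alternatives covered scaling, a floor, dim genes, probe sets, variance model, array weights, Xist, the replicate number and each array left out. Promoter windows were matched for 8 of the 9 genes.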

Additional observations from a re-analysis of the deposited data

Results flagged for a closer look

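Control arrays of 49 named genes were screened for 1 value far from the other 4, and 4 genes were picked up; chance picks out about 5% of groups. For Gzmg, control 5 was lowest at 4.90 against 5.11 to 5.15 on the others (gap over range 0.832). For Tnfrsf10b, control 2 was lowest at 6.35 against 6.60 to 6.64 (0.857). For Il23r, control 3 was at 3.56 and the others all at 3.62 (1), and for Clec9a, control 3 was at 4.46 and the others all at 4.45 (1), both below the negative-control medians. None of the 9 granule genes was picked up, and the inflamed group of 3 is too small for this screen.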

How the results depend on the processing

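All 7 risen granule genes stayed called under other scalings, the mean over probe sets, robust variances with a trend, weighted arrays and Xist as a covariate. With a floor at the dim limit, or without dim genes, 5 were called (not Gzmk and Fasl). Leaving out each array in turn gave 6 to 7 called, the loss being Fasl, and 2477 to 4531 of all genes, against 3996; the lowest count was without inflamed replicate 1. With the replicate block, 0 of the 9 and 0 of all genes passed limma's test, with 7 and 4885 at an unadjusted p under 0.05. The numbers do not pair the mice and that fit keeps few residual degrees of freedom; Gzma then differed by 2.55 (adjusted p = 0.0689). The leave-one-out differences were 2.34 to 3.09 for Gzma and 2.06 to 2.82 for Gzmb. Signal near background limits Prf1, Fasl, Gzmk and Gzmc most, and control values of the other 5 were not fully clear of it.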
